A study of Rattus norvegicus with 5 samples.

Results

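Striatomesencephalic neurons of the rat striatum, the cells of the direct pathway, are described here from the 2 RNA sequencing libraries whose cell type label names them, out of 5 libraries in all. The other 3 came from striatopallidal neurons, the cells of the indirect pathway. In both groups, fluorescent tracer infused where striatal axons end was carried back to the cell bodies, and tracer-filled cells were cut out of tissue with a laser. The labels name no strain, sex, age or treatment of the rats and no number of cells or animals behind a library, so replicates 1 and 2 may share an animal. Values are given in CPM, the counts of a gene per 1000000 counts of its library, for replicate 1 and then replicate 2.

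Spiny projection neurons release GABA and make up most of the striatum. Those of the direct pathway send axons to the midbrain, carry the dopamine receptor Drd1 and use substance P and dynorphin as co-transmitters, which are cut from the precursors Tac1 and Pdyn. Those of the indirect pathway carry Drd2 and the adenosine receptor Adora2a and make enkephalin from Penk. Glutamate from cortex and thalamus and dopamine from the midbrain converge on both, and potassium, sodium and calcium channels set how readily they fire.

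The libraries held 20845178 and 22614680 counts. By counting error alone a count of 0 allows up to 3 counts, which were worth 0.144 and 0.133 CPM. A gene was taken as detected with 10 or more counts in both libraries, which 11823 of 32285 genes reached. The deposited gene names covered 11156 of these, and the 667 without a symbol are not described. A further 1021 genes reached 10 counts in replicate 1 alone and 1063 in replicate 2 alone. All genes without a symbol together held 0.245% and 0.233% of the counts of replicates 1 and 2. Having a name thus went with having reads, so a high share of named genes detected, in any list below, was largely set beforehand. Of the 11823 genes, 10664, or 90.2%, also had 10 or more counts in each of the 3 striatopallidal libraries, and they made up 95.6% of the 11150 genes that did. No test between the 2 neuron types was made for this description.

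The label was checked first. Drd1 stood at 861 and 1084 CPM, a ratio of replicate 2 to replicate 1 of 1.26 (95% Clopper-Pearson interval 1.23 to 1.28, counting error only). Tac1 stood at 2260.5 and 2824 CPM, and Pdyn at 1199 and 923 CPM. Isl1, a homeobox factor of direct pathway neurons, stood at 49.8 and 56.1 CPM. All 4 were close between the libraries, at most 1.30-fold apart.

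The striatopallidal libraries were lower for each of these genes. In their replicates 1, 2 and 3, Drd1 stood at 582, 311 and 415 CPM and Isl1 at 18.7, 14.2 and 2.86 CPM. Tac1 stood at 1377, 1048 and 861 CPM there and Pdyn at 394, 190 and 274 CPM. RNA of these genes was thus not confined to the striatomesencephalic libraries. The smallest p that an exact permutation test can reach for 2 against 3 libraries is 0.1, and these values are given as a description only.

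Of the 12 direct pathway markers, 12 were detected and 9 lay within 2-fold between the libraries. Over all detected genes 60.2% lay within 2-fold, and 79.2% did among genes from 100 to 1000 CPM. The median of these markers was 118 CPM, so their agreement is not particular to them. Lingo2, which encodes a leucine-rich repeat protein of neuronal membranes, stood at 124 and 111 CPM, and Slc35d3 at 54.98 and 56.2 CPM. Sfxn1, a mitochondrial serine carrier, stood at 287 and 236 CPM. Eya1 stood at 21.01 and 30.6 CPM and Zfp521, a zinc finger factor, at 19.7 and 17.3 CPM, so these 2 differed little between libraries despite their lower read numbers. The 3 that differed more were the acid-sensing channel gene Asic4 (54.5 and 183 CPM), the muscarinic receptor gene Chrm4 (12.9 and 41.9 CPM) and the transcription factor gene Ebf1 (267 and 132 CPM). Asic4 and Chrm4 were higher in replicate 2 and Ebf1 in replicate 1.

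RNA of indirect pathway markers was present in both libraries. Of 10 symbols listed, Gpr52, Sp9 and Upb1 matched no symbol used here, and the other 7 were all detected. Adora2a, with a mean of 987 CPM, drew about as many reads as the direct pathway marker Drd1, with 973 CPM. It stood at 824 and 1150.5 CPM, against 2558, 3676 and 2814 CPM in the striatopallidal libraries. Penk stood at 261 and 361 CPM against 2242, 1259 and 2395 CPM there. Drd2 stood at 144 and 110.0 CPM against 606, 391 and 524 CPM. The receptor phosphatase gene Ptprm (463 and 303 CPM) and the orphan receptor gene Gpr6 (144 and 89.0 CPM) were also within 2-fold between the 2 striatomesencephalic libraries. Grik3 and Plxdc1 were not, at 46.6 and 5.79 CPM and at 8.44 and 1.46 CPM. Whether the RNA of these genes came from the captured cells or from neighbouring ones was not tested.

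**Figure D1:**
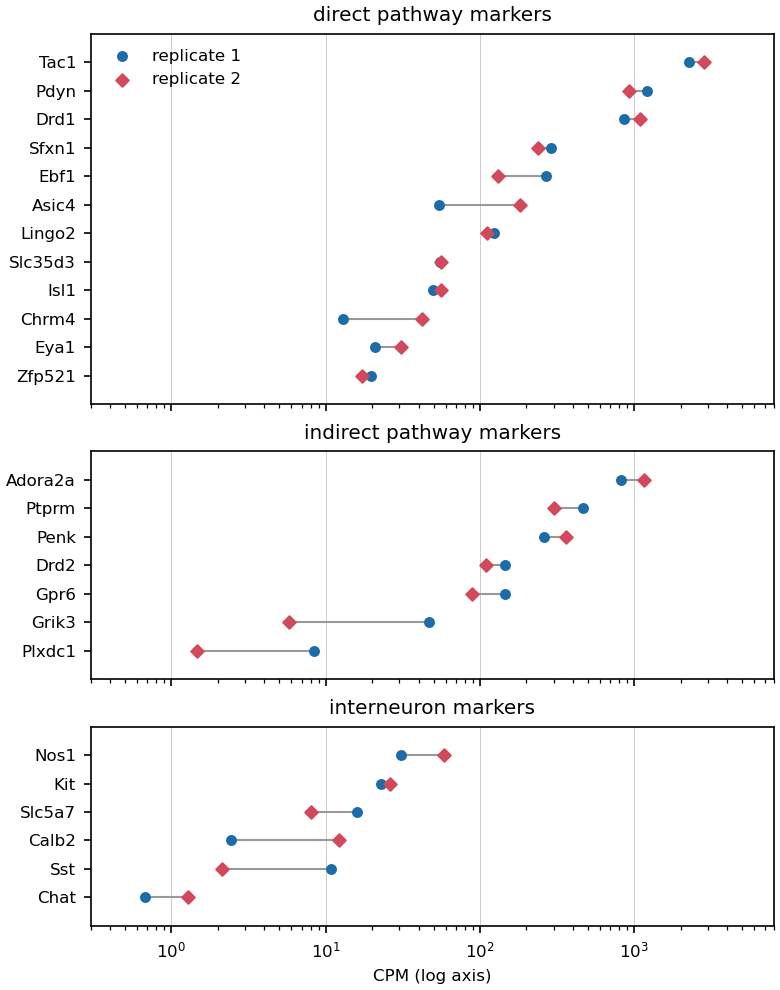
CPM of marker genes in the 2 striatomesencephalic libraries on a log axis, with replicate 1 as circles, replicate 2 as diamonds and a line joining them. Drd1, Tac1, Pdyn and Isl1 lie at most 1.30-fold apart, while Grik3, Plxdc1, Calb2 and Sst lie over 4-fold apart.

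Genes shared by both types of spiny neuron were detected in 16 of 16 cases, with a median of 846 CPM against 29.5 CPM over all detected genes with a symbol. Ppp1r1b, which encodes DARPP-32, the protein that relays dopamine signals to protein phosphatase, stood at 1426 and 1813 CPM. Arpp21, a cAMP-regulated phosphoprotein, stood at 1613 and 2267 CPM. Both were higher in replicate 2, as were 12 of the 16. Rgs9, which shortens G protein signals, was the 1 gene of the list beyond 4-fold, at 256 and 1806 CPM. The GABA-synthesising enzymes Gad1 (448 and 396 CPM) and Gad2 (939 and 1011 CPM), picked from the list after their values were seen, were nearly equal between libraries.

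Markers of other cells were also present. All 13 oligodendrocyte genes were detected, with a summed level of 6047 and 7514 CPM, of which Mbp gave 2579 and 3565 CPM. All 10 astrocyte genes were detected, summing to 1400 and 1177 CPM, with the glutamate transporter gene Slc1a3 at 387 and 484 CPM and the gap junction gene Gja1 at 473 and 211 CPM. Microglial genes, of which 5 of 9 were named and detected, summed to 122 and 114 CPM. Vascular genes summed to 41.5 and 74.5 CPM over 5 named members, 3 of them detected, with Flt1 at 19.5 and 32.7 CPM and Slco1c1 at 19.1 and 19.3 CPM. The 3 detected genes of oligodendrocyte precursors summed to 55.9 and 89.1 CPM. Pdgfra, a growth factor receptor, stood at 43.6 and 27.8 CPM, while Vcan (11.7 and 53.9 CPM) and Cspg4 (0.672 and 7.30 CPM), both proteoglycan genes, lay beyond 4-fold and were higher in replicate 2. The blood gene Alas2 stood at 2.69 and 4.82 CPM. How far this RNA enters the values of other genes was not tested.

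Interneuron markers summed to 83.6 and 109 CPM. Of 12 listed, Slc18a3, Pvalb, Npy, Th, Vip and Lhx6 matched no symbol used here, and the other 6 were detected. Chat, the acetylcholine-making enzyme of cholinergic interneurons, had 14 and 29 counts, and the choline transporter gene Slc5a7 stood at 15.97 and 8.004 CPM. Nos1, the nitric oxide synthase gene, stood at 30.8 and 58.9 CPM and Kit at 22.8 and 26.05 CPM. Calb2 stood at 2.45 and 12.2 CPM and Sst, the somatostatin precursor, at 10.9 and 2.12 CPM, so each was over 4-fold apart, in opposite directions. Of the 7 markers of glutamatergic neurons, among them Slc17a7 and Slc17a6, 0 matched a symbol used here, so their levels were not analysed. In bulk samples like these, fewer cells of a type and less RNA per cell cannot be told apart.

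Ranked by mean CPM, the reads were spread over many genes. The top 100 genes took 19.1% and 20.7% of the counts of replicates 1 and 2, and 109 genes exceeded 1000 CPM. CPM is not corrected for transcript length, so a rank orders genes by their reads and not by their number of transcripts. Pde10a, a phosphodiesterase that breaks down cAMP and cGMP in spiny neurons, came first at 4290 and 6123 CPM. The protein kinase C gene Prkcb (5256 and 4285 CPM) and Phactr1, which binds actin and protein phosphatase (5011 and 3809 CPM), came next. The chaperone gene Hsp90ab1 (4396 and 4310 CPM) and the calcium pump gene Atp2b1 (3702 and 4935 CPM) completed the first 5.

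Further genes among the top 20 were the calcineurin subunit gene Ppp3ca (3216 and 3763 CPM), the microtubule-associated kinase gene Dclk1 (3239 and 3404 CPM), the vesicle calcium sensor gene Syt1 (3191 and 3049 CPM), the axon initial segment scaffold gene Ank3 (2875 and 2667 CPM) and the calmodulin gene Calm2 (2638 and 2824 CPM). The mitochondrial gene Mt-co1 stood at 3521 and 4486 CPM. Itm2c (2993 and 3624 CPM), Ppp1cc (2652 and 3338 CPM), Cyfip2 (2224 and 3678 CPM), Nisch (3961 and 3143 CPM) and AY172581.24 (2258 and 3045 CPM) were also in it, with Kcnab1 and Mbp. All these lay within 2-fold, as did 18 of the 20 genes. The 2 exceptions were Sh3glb2, at 2336 and 5451 CPM, and the ribosomal protein gene Rps3, at 694 and 7412 CPM, 10.7-fold apart. Genes such as Rps3, Calm2 and Hsp90ab1 have near-identical copies elsewhere in the genome, and how the authors counted reads that fit several places is not given, so their levels are uncertain. Of the top 100 genes of each library, 76 were shared, and of the top 1000, 743.

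Above 1 CPM, a larger share of genes agreed between the 2 libraries the higher their level. Across the 11823 detected genes, which are not replicates and share a library, the Spearman correlation was 0.823, the median difference was 1.71-fold, 60.2% lay within 2-fold and 15.3%, or 1806 genes, lay beyond 4-fold. Of these 1806, 911 were higher in replicate 1 and 895 in replicate 2. Among genes from 100 to 1000 CPM 79.2% lay within 2-fold, and among the 109 above 1000 CPM 91.7% did. From 1 to 10 CPM 48.5% did, and from 10 to 100 CPM 58.0%. Under 1 CPM the minimum of 10 counts in both leaves little room to differ, so the 82.1% there is set by the filter. The counting interval of the ratio excluded 1 for 9985 genes, or 84.5%, so most differences were larger than counting error.

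**Figure D2:**
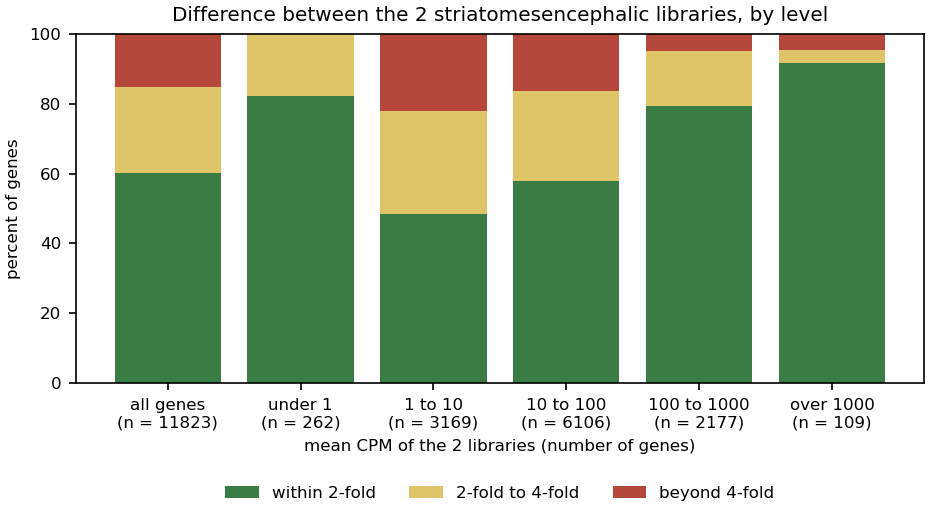
Share of detected genes whose CPM in the 2 striatomesencephalic libraries differed by less than 2-fold, by 2-fold to 4-fold and by more than 4-fold, as stacked bars in percent, for all genes and by mean CPM. The share within 2-fold is 48.5% from 1 to 10 CPM and 91.7% above 1000 CPM.

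The same measure differed among striatopallidal pairs, with 71.5% of genes within 2-fold between replicates 1 and 3, and 49.2% and 49.3% in the pairs that include replicate 2. The striatomesencephalic pair lay between these values. In addition, 205 genes had 100 or more counts in striatomesencephalic replicate 1 and under 10 in replicate 2, and 202 the reverse. Such genes are not in the shares above, and those few of them that are named below are given by their counts.

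**Figure D3:**
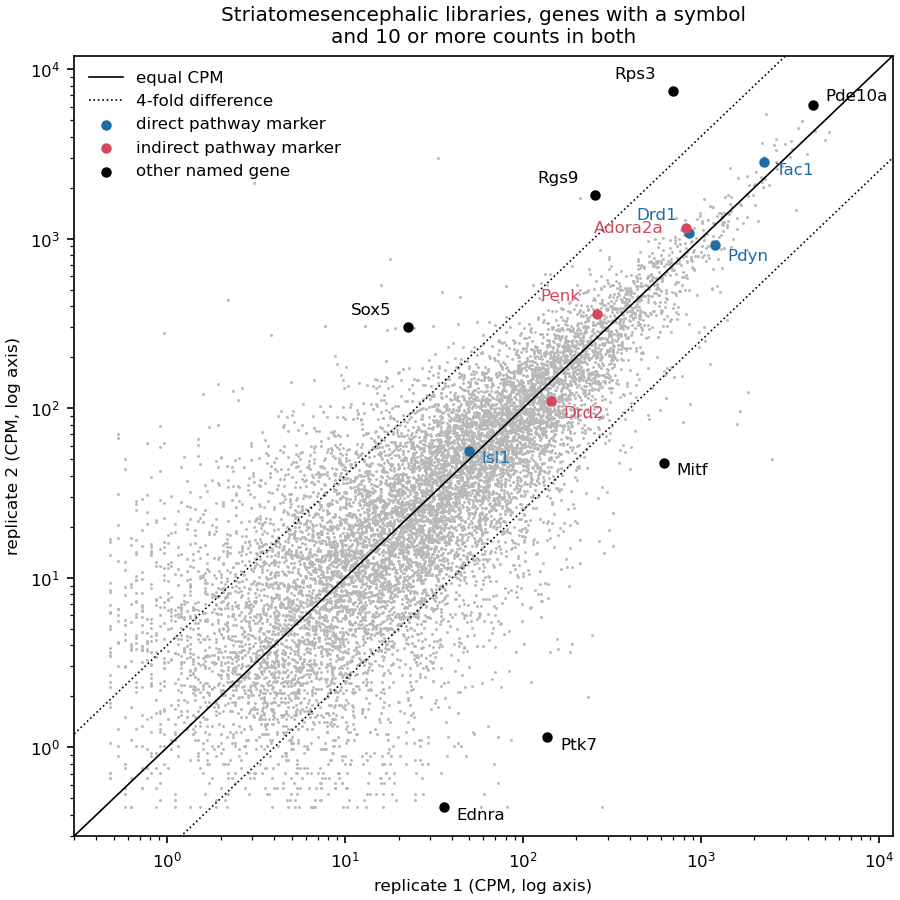
CPM of genes with a symbol and 10 or more counts in both libraries, replicate 1 against replicate 2 on log axes, with lines of equal CPM and of a 4-fold difference. The labelled pathway markers, such as Drd1 and Drd2, lie inside the 4-fold lines, while Rps3, Rgs9, Sox5, Mitf, Ptk7 and Ednra lie outside the 4-fold lines.

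The repertoire was described with 40 lists in 5 classes. Of genes with a symbol, 92.7% were detected. That share was 92.0% of 87 matched genes for peptides and secreted factors, 88.5% of 235 for receptors, 91.5% of 176 for channels, 91.0% of 266 for transporters and 93.2% of 279 for transcription factors. The names used here cover 12039 genes, so these are shares of named genes and not of whole gene families. Named genes held nearly all counts, so high shares were largely set by the naming and are no result about a class. Median levels of detected members ran from 26.4 CPM for channels to 36.9 CPM for receptors, beside 29.5 CPM over all. Within 2-fold lay 64.6% of channel genes, 62.8% of transporter genes, 62.5% of peptide genes, 57.7% of receptor genes and 56.5% of transcription factor genes, beside 59.9% of all detected genes with a symbol. Counts within 2-fold for single lists below are to be read beside that share, and beside 79.2% for detected genes from 100 to 1000 CPM.

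**Figure D4:**
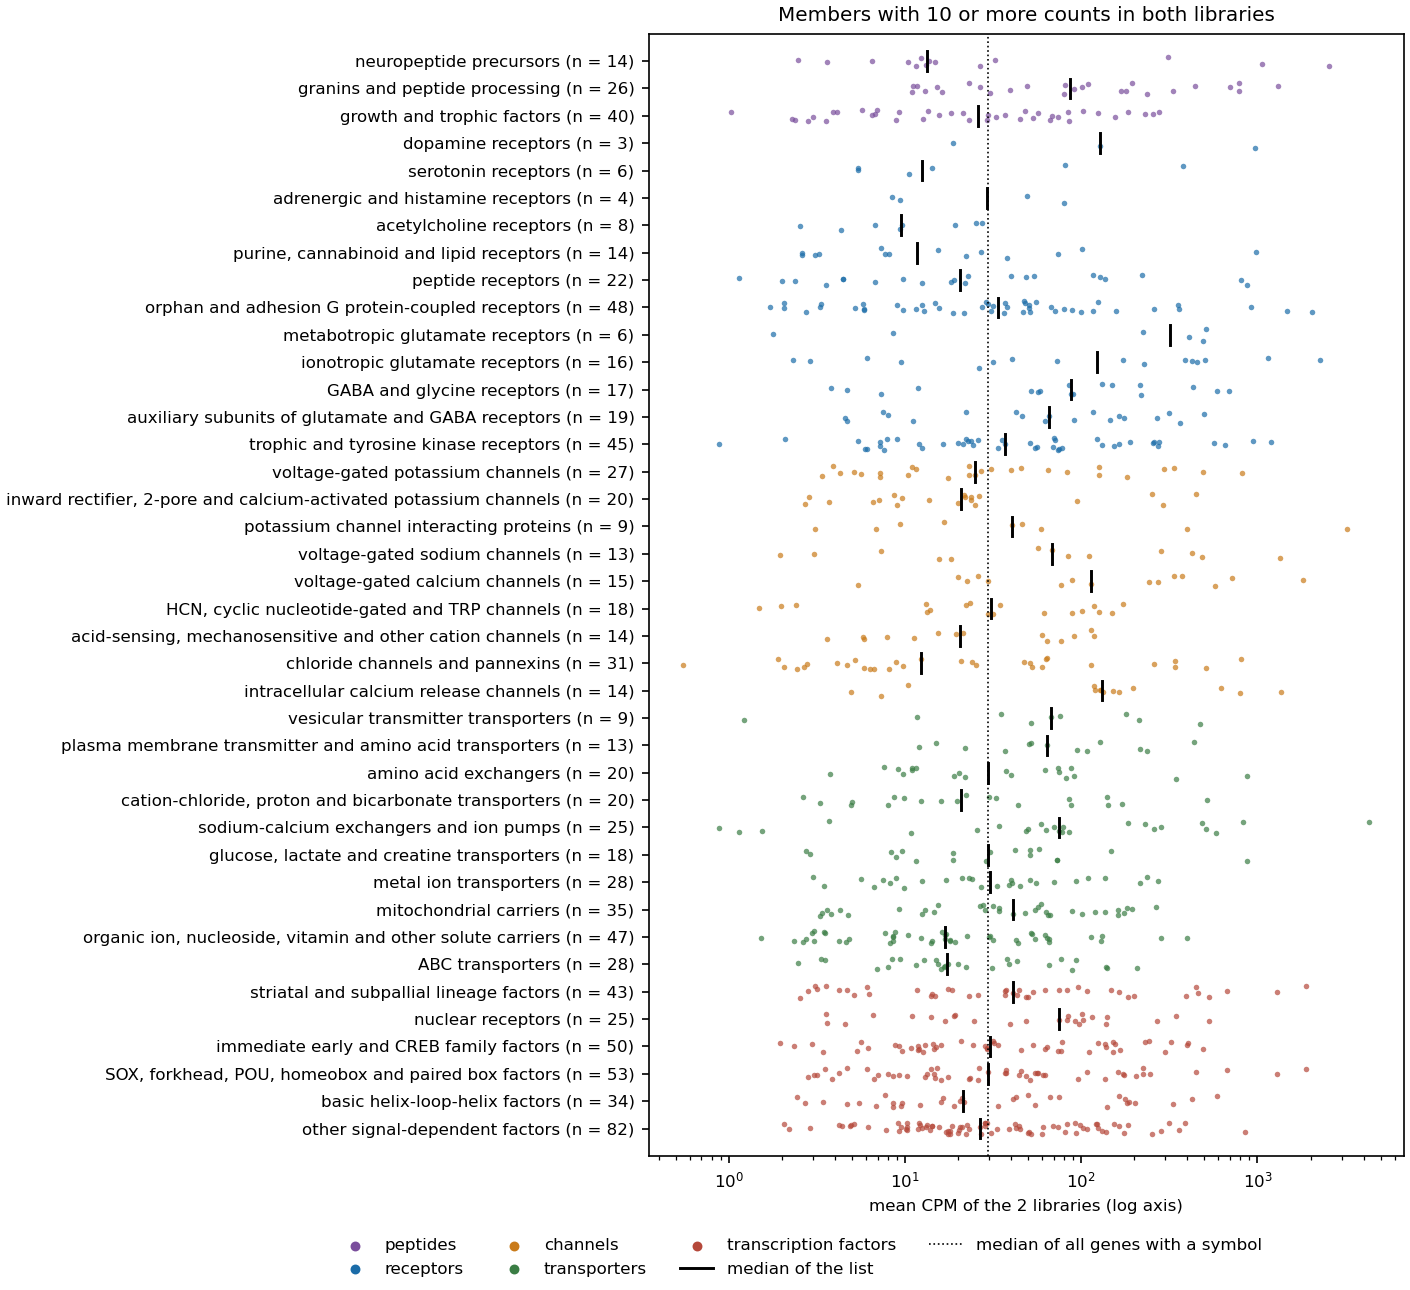
Mean CPM of the 2 libraries on a log axis for each detected member of the 40 lists, 1 point per gene, coloured by class, with the median of each list as a black bar and that of all detected genes with a symbol as a dotted line. List medians run from 9.45 CPM for acetylcholine receptors to 318 CPM for metabotropic glutamate receptors.

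Peptide precursors were led by the 3 of the opioid and tachykinin families. Besides Tac1, Pdyn and Penk, the list had Cartpt, the precursor of the CART peptides, at 38.6 and 25.8 CPM. No other of the 14 detected precursors had a mean above that of Cartpt. Of 68 precursors listed, 53 matched no symbol used here, and they were not analysed. Nmu, the neuromedin U precursor, stood at 2.54 and 50.9 CPM, and Ghrl, the ghrelin precursor, at 0.72 and 6.46 CPM. These 2 were high in replicate 2 only. The endothelin precursor gene Edn1 had 124 and 2 counts.

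The promoters of Tac1 and Pdyn are shown because these 2 peptide genes drew the most reads of their list. They encode the precursors of the co-transmitters of direct pathway neurons, though both also had reads in the striatopallidal libraries. The promoters are RefSeq windows on build GRCr8, from 250 bases before to 50 bases after the start of the gene, 5′ to 3′. Coordinates are chr4:36645333-36645632 (plus strand) for Tac1 and chr3:137366454-137366753 (minus strand) for Pdyn. Capitals mark matches on either strand to the TATA box core TATAAA, the CRE core TGACG, bound by CREB family factors, and the GC box GGGCGG. These motifs occur in 14.2%, 21.2% and 33.1% of all 33469 windows. The Tac1 window has 1 match to the CRE core and the Pdyn window 1 match to the TATA box core, with no overlap of motifs.
Tac1: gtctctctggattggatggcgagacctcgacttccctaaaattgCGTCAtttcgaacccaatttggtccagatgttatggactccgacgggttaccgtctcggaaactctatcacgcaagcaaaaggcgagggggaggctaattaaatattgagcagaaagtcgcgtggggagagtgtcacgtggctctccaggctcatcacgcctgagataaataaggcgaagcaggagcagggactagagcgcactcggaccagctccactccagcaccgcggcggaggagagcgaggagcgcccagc
Pdyn: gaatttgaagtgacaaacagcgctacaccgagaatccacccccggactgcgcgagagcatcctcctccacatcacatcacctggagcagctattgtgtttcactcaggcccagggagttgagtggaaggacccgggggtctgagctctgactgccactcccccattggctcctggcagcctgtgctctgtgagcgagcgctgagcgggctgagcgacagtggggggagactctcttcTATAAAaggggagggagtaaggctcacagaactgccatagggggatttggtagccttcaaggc

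Among genes that process and store peptides, all 26 named members were detected, 20 of them within 2-fold, with a median of 86.4 CPM. Cpe, the carboxypeptidase that trims peptide ends, stood at 1408 and 1204 CPM. Pcsk2, a convertase that cuts prodynorphin and proenkephalin, stood at 439 and 451 CPM. Its chaperone Scg5 stood at 841 and 728 CPM, and Pam, which amidates peptides such as substance P, at 679 and 726 CPM. Ptprn2, a protein of dense-core vesicles, stood at 914 and 661 CPM. In contrast to Pcsk2, the convertase gene Pcsk1 was 4.62-fold apart, at 18.2 and 3.94 CPM.

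Growth and trophic factors were detected in 40 of 46 named cases, with 21 within 2-fold. Reln, a large secreted protein of neuronal positioning, stood at 269 and 282 CPM, and Tgfa, a ligand of the EGF receptor, at 207 and 162 CPM. The neuregulin gene Nrg2 stood at 319 and 192 CPM, Lgi1 at 132 and 331 CPM and Manf at 92.6 and 219.5 CPM. Several factors were present almost in 1 library alone. Fgf9 stood at 102 and 4.07 CPM and Igf1 at 44.9 and 1.02 CPM, both high in replicate 1. Hbegf stood at 1.63 and 35.1 CPM, high in replicate 2. Olfm2, Cbln4 and Tgfb3 had 438, 251 and 138 counts in replicate 1 and 5, 2 and 1 in replicate 2.

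The serotonin receptor gene Htr2c stood at 365 and 389 CPM and Htr2a at 89.6 and 72.8 CPM. The other 4 detected serotonin receptor genes drew fewer reads. Htr6 stood at 26.6 and 1.99 CPM, Htr3a at 16.8 and 4.201 CPM, Htr4 at 8.87 and 1.90 CPM and Htr5b at 7.29 and 3.58 CPM. All 4 were higher in replicate 1. Htr1b had 9 and 125 counts and Htr1d 109 and 8 counts.

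The dopamine receptor gene Drd3 stood at 31.1 and 6.54 CPM. The histamine receptor gene Hrh3 stood at 67.8 and 90.9 CPM and the adrenergic receptor gene Adra2c at 37.03 and 61.3 CPM. Both lay within 2-fold, as did 60.2% of all detected genes. Adra2b stood at 10.6 and 8.14 CPM. Adra2a lay beyond 4-fold, at 16.3 and 0.531 CPM. Acetylcholine receptors had the lowest median of the 40 lists, 9.45 CPM over 8 detected genes, and 3 of the 8 lay within 2-fold. Besides Chrm4, the muscarinic receptor gene Chrm1 stood at 22.6 and 28.03 CPM, and Chrm5 at 12.7 and 0.796 CPM.

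Among nicotinic subunits, Chrna5 stood at 31.9 and 6.50 CPM, Chrna1 at 5.47 and 13.7 CPM, Chrnb1 at 11.4 and 7.21 CPM and Chrna2 at 0.672 and 4.42 CPM, while Chrnb2 had 4 and 340 counts. Of these 5 genes, Chrnb1 alone lay within 2-fold. Chrm4 and Chrm5 overlap other genes in RefSeq's annotation, Mdk and Aven, and whether the authors counted by strand is not given, so part of these reads may belong to the neighbour. Of 373 genes taken for naming, 23 overlap another gene with a symbol, and the text does not mark each of them. Foxp1, Abcc10, Kcnh7, Adgra2, Slc1a1 and Slc25a25 are among those not marked, and the same limit holds for them.

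Among receptors for purines, cannabinoids and lipids, Adora2a was followed by S1pr1, a sphingosine phosphate receptor gene, at 111 and 91.8 CPM. Cnr1, the cannabinoid receptor gene, stood at 28.8 and 119.7 CPM, 4.15-fold apart. The ATP-gated channel gene P2rx4, which overlaps Camkk2, stood at 24.5 and 51.6 CPM. S1pr3 stood at 3.26 and 50.9 CPM, Ptafr at 12.7 and 2.74 CPM and Lpar4 at 5.37 and 0.84 CPM, so each was over 4-fold apart, and Tbxa2r had 8 and 175 counts.

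Peptide receptors were led by sorting receptors. Sorcs1 stood at 903 and 839 CPM, Sorcs3 at 219 and 226 CPM and Sort1, sortilin, which binds neurotensin and proneurotrophins, at 614 and 1008 CPM. Of the opioid receptors, the mu receptor gene Oprm1 lay within 2-fold, at 142 and 113 CPM. The kappa receptor gene Oprk1, whose ligand is dynorphin, stood at 2.59 and 10.9 CPM. The delta receptor gene Oprd1 had 228 and 2 counts. Ramp1, which partners the CGRP receptor, stood at 96.0 and 178 CPM. The somatostatin receptor gene Sstr4 stood at 8.97 and 88.7 CPM and the endothelin receptor gene Ednra at 35.9 and 0.442 CPM. Vipr1 had 3 and 1265 counts and Calcr 185 and 1. Of the 29 named peptide receptor genes, 22 were detected, and 12 of the 22 lay within 2-fold.

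Of 53 named orphan and adhesion receptors, 48 were detected and 27 lay within 2-fold. The adhesion receptor gene Adgrb3, which binds C1q-like proteins, stood at 1599 and 1324 CPM. The latrophilin genes Adgrl3 and Adgrl2 stood at 1048 and 802 CPM and at 334 and 388 CPM. Adgrg1 stood at 222 and 485 CPM. The genes furthest apart were Adgra3, at 156 and 4.38 CPM, Lgr4, at 2.97 and 60.3 CPM, and Adgra2, at 0.72 and 10.8 CPM. Gpr153 and Adgrg6 had 1 count each in replicate 1 and 111 and 100 counts in replicate 2.

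Glutamate receptors were detected in 22 of 22 named cases. Gria2, the AMPA receptor subunit that limits calcium entry, stood at 2293 and 2240 CPM, Gria3 at 446 and 458 CPM and Gria1 at 436 and 411 CPM. These 3 AMPA receptor genes differed by at most 1.06-fold. The NMDA receptor subunit gene Grin2b stood at 587 and 423 CPM and the kainate receptor gene Grik2 at 1272 and 1025 CPM. Grin3a, another NMDA receptor subunit gene, stood at 2.16 and 16.8 CPM.

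Metabotropic glutamate receptors had the highest median of the 40 lists, 318 CPM over 6 genes. Grm5, coupled to calcium release, stood at 489 and 497 CPM, and Grm7, a presynaptic receptor, at 543 and 479.8 CPM. Grm3 stood at 369.7 and 451 CPM. Grm2 stood at 11.8 and 5.35 CPM. The auxiliary subunits of these receptors and of GABA receptors were detected in 19 of 19 cases. Neto1, a partner of kainate and NMDA receptors, stood at 671 and 327 CPM. The AMPA receptor partners Cacng4 and Cacng3 stood at 322 and 216 CPM and at 178 and 172 CPM. Shisa6, another AMPA receptor partner, stood at 0.816 and 15.1 CPM, and Cnih4 at 2.78 and 19.5 CPM.

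GABA receptors were detected in 17 of 18 named cases with glycine receptors, and 13 lay within 2-fold. Gabra4, a subunit of receptors outside the synapse, stood at 653 and 734 CPM. Gabrb1 stood at 241 and 198 CPM and Gabbr1, of the metabotropic GABA receptor, at 359.6 and 501 CPM. Gphn, the scaffold of inhibitory synapses, stood at 272 and 359 CPM. Gabrp had 1088 counts in replicate 1 and 0 in replicate 2. By counting error alone a count of 0 there allows up to 0.133 CPM, which does not cover transcripts lost before sequencing. Gabra3 and Gabrr3 were over 4-fold apart, at 8.49 and 0.929 CPM and at 2.73 and 11.9 CPM.

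Receptors for trophic factors were detected in 45 of 51 named cases, with 23 within 2-fold and 11 beyond 4-fold. Ntrk2, the receptor of BDNF, stood at 1484 and 893 CPM, and Ntrk3, that of neurotrophin 3, at 637 and 501 CPM. The ephrin receptor gene Ephb1 stood at 1110 and 772 CPM, Bmpr2 at 563 and 743 CPM and Igf1r at 363 and 193 CPM. Ptk7 was 120-fold apart, the widest of the detected receptor genes named here, at 137 and 1.15 CPM. Erbb3, a neuregulin receptor gene, stood at 1.49 and 65.8 CPM and Ephb6 at 10.2 and 0.575 CPM. Bmpr1b had 116 and 3 counts.

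**Figure D5:**
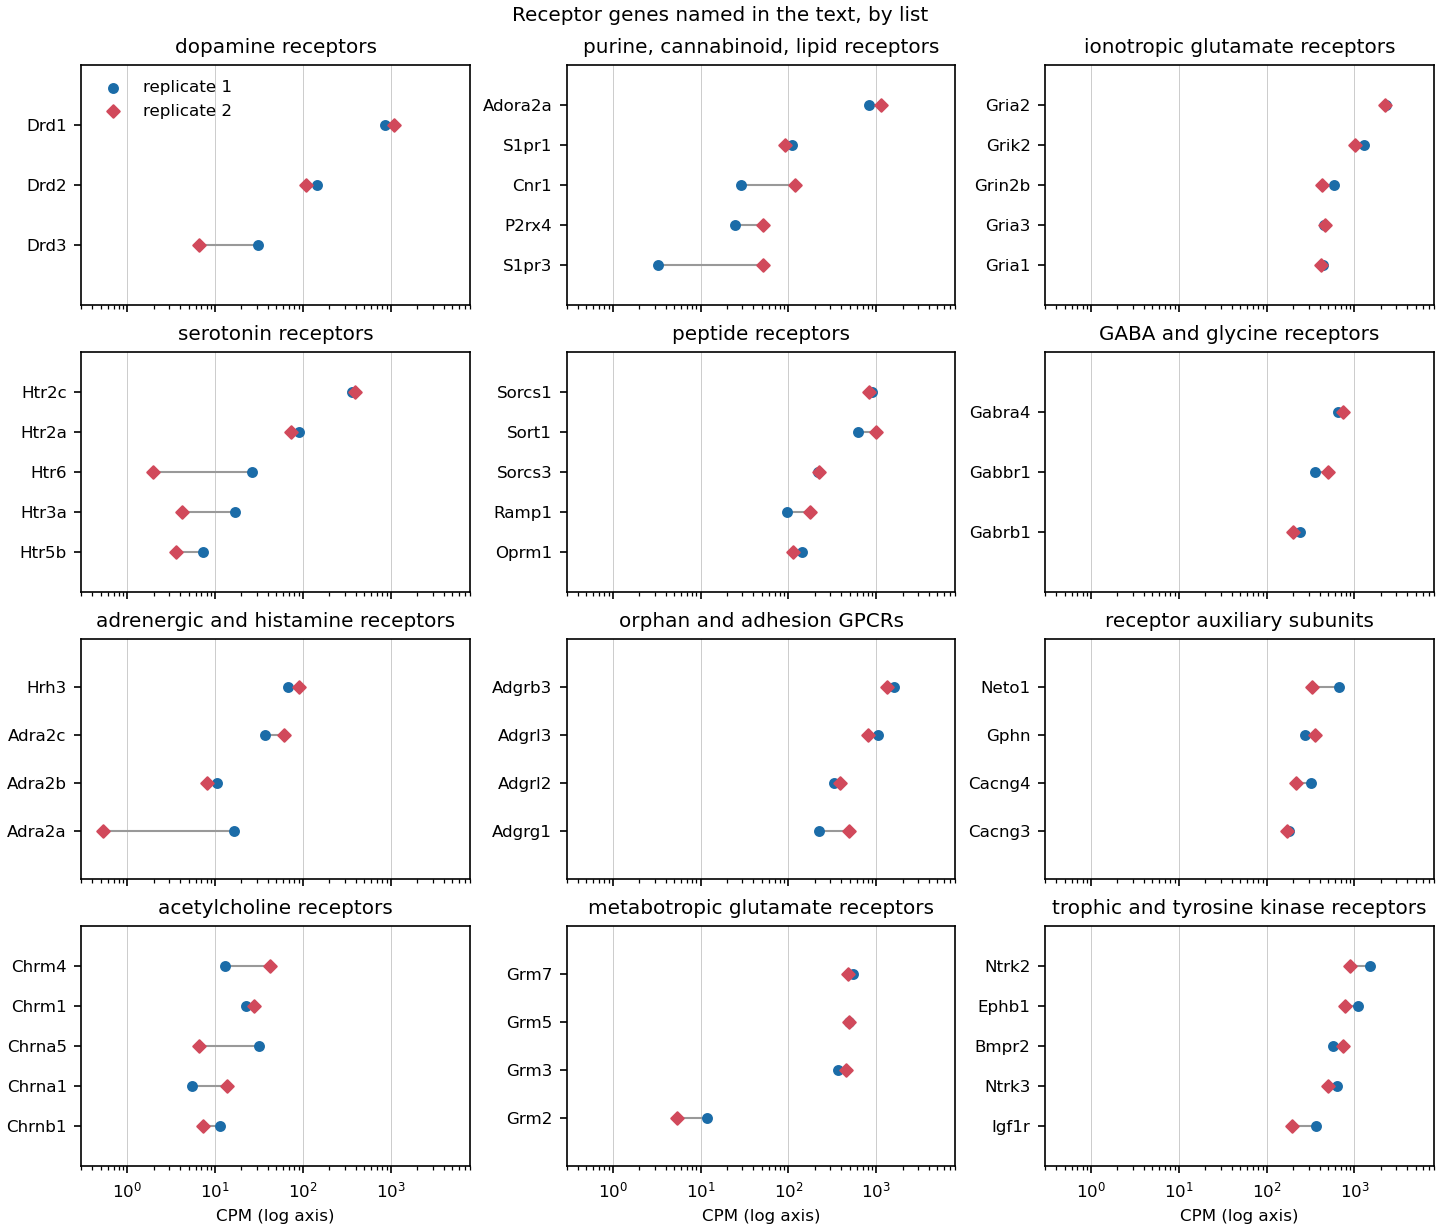
CPM of receptor genes named in the text, up to 5 per list for 12 lists, on log axes, with replicate 1 as circles and replicate 2 as diamonds. Gria2, Grm5 and Htr2c show nearly the same value in both libraries, while Htr6, Adra2a and S1pr3 lie over 13-fold apart.

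Potassium channel genes were led by a cytoplasmic subunit. Kcnab1, a beta subunit of Kv1 channels, stood at 2634 and 3848 CPM, and all 9 detected genes of the list of interacting proteins lay within 2-fold. Dpp6, a Kv4 partner, stood at 358 and 442 CPM, Dpp10 at 70.5 and 48.4 CPM, Kcnip1 at 40.1 and 52.2 CPM and Kcnip4 at 39.1 and 41.5 CPM. Kcnab3, another beta subunit gene, was in the same list but had 0 and 200 counts.

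Pore-forming voltage-gated potassium channels were detected in 27 of 28 named cases. Kcnq5 and Kcnq3, of the M current that muscarinic receptors close, stood at 886 and 744 CPM and at 208 and 380.5 CPM. Kcnq1 stood at 218 and 148 CPM, Kcnh1 at 454 and 523 CPM and Kcna1 at 297 and 377 CPM. Of the silent subunits, Kcng3 stood at 5.90 and 40.3 CPM and Kcng2 at 9.64 and 0.619 CPM, and Kcns3 had 6 and 340 counts. Kcnh7 stood at 20.4 and 1.64 CPM. Of the calcium-activated and sodium-activated channels, Kcnma1, the BK channel, stood at 375 and 515 CPM, Kcnn3 at 108 and 80.1 CPM and Kcnt1 at 336 and 249.6 CPM, each within 2-fold. Kcnmb2, a BK subunit gene, lay beyond 4-fold, at 0.864 and 12.3 CPM, and Kcnn1 had 7 and 128 counts. The leak channel gene Kcnk2 stood at 267 and 236 CPM. Kcnj4, an inward rectifier of spiny neurons, stood at 8.44 and 44.4 CPM.

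Sodium channel genes were detected in 13 of 13 cases, and 10 lay within 2-fold. Scn4b, the beta subunit of resurgent current, stood at 1151 and 1536 CPM and Scn3b at 299.7 and 549 CPM. The pore genes Scn8a and Scn1a stood at 423 and 546 CPM and at 356 and 211 CPM. Nalcn, the sodium leak channel, stood at 147 and 73.2 CPM. Scn2b was over 4-fold apart, at 0.480 and 3.45 CPM.

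Calcium channel genes were detected in 15 of 15 cases, with a median of 114 CPM. Cacna2d3 and Cacna2d1, auxiliary subunits that carry channels to the membrane, stood at 2023 and 1585 CPM and at 442 and 701 CPM. The beta subunit genes Cacnb2 and Cacnb4 stood at 726 and 716 CPM and at 405 and 269.7 CPM. Cacna1e, the pore of R-type channels, stood at 398 and 349 CPM. Cacna1g, of T-type channels, stood at 0.672 and 10.2 CPM.

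Channels that release calcium inside the cell had a median of 131 CPM, and 12 of 14 lay within 2-fold. Itpr1, the receptor of inositol trisphosphate, stood at 1177 and 1548 CPM and the ryanodine receptor gene Ryr3 at 627 and 608 CPM. Micu2, a regulator of mitochondrial calcium uptake, stood at 230.2 and 98.7 CPM, and Mcur1 at 9.21 and 0.708 CPM. The porin gene Vdac1 stood at 195 and 196 CPM.

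Among other cation channels, Pkd2 stood at 161 and 185 CPM, Trpm3 at 118 and 119 CPM and Trpm7 at 82.7 and 169 CPM. Trpv6 stood at 158 and 43.9 CPM, and Trpc5, which overlaps Alg13, at 22.5 and 4.07 CPM. The pacemaker channel gene Hcn2 stood at 6.48 and 40.3 CPM, 6.22-fold apart. Trpv5 and Trpv1 had 0 and 7 counts in replicate 1 and 365 and 223 in replicate 2. Asic1 stood at 15.9 and 112 CPM, so both acid-sensing channel genes named here were higher in replicate 2. Orai2, a store-operated calcium channel gene, and the store sensor gene Stim2 stood at 129 and 98.9 CPM and at 62.5 and 90.4 CPM. Orai1 stood at 35.02 and 3.94 CPM, Tmc7 at 6.81 and 0.442 CPM and Tmem63b, which overlaps Mrpl14, at 140.1 and 42.9 CPM.

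Chloride channels and gap junction genes had a median of 12.3 CPM, with 15 of 31 within 2-fold. Ano3, of the anoctamin family, stood at 769 and 841 CPM, the endosomal exchanger gene Clcn3 at 376 and 305 CPM, Ttyh1 at 629.5 and 398 CPM and Lrrc8c at 383 and 135 CPM. Panx1, Ano8 and Gjb2 were over 4-fold apart, the first 2 higher in replicate 2. Best1 had 0 and 515 counts and Clcn5 378 and 0.

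Transporters that fill transmitter vesicles were detected in 9 of 9 named cases. Slc32a1, which loads GABA, stood at 34.6 and 117 CPM. Slc18a2, the vesicular monoamine transporter gene, stood at 65.9 and 68.8 CPM. The vesicle proteins Sv2a, Sv2b and Sv2c stood at 508 and 441, 197 and 229, and 202 and 159 CPM, each within 2-fold. At the plasma membrane, the neuronal glutamate transporter gene Slc1a1 stood at 233 and 242 CPM and Slc6a17 at 125 and 129 CPM. The taurine transporter gene Slc6a6 stood at 43.4 and 172 CPM, Slc22a3, a monoamine uptake transporter gene, at 16.3 and 87.9 CPM and Slc6a20 at 2.06 and 28.03 CPM. All 3 were higher in replicate 2. Slc29a4 had 189 and 4 counts and Slc6a11 3 and 183.

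Ion pumps and calcium exchangers were detected in 25 of 25 cases, with 21 within 2-fold. Besides Atp2b1, the endoplasmic reticulum pump gene Atp2a2 stood at 672 and 979 CPM and Atp2b2 at 606 and 564 CPM. Atp1b1, of the sodium pump, stood at 504 and 468 CPM and the exchanger gene Slc24a2 at 406 and 614 CPM. Of the 4 outside 2-fold, the exchanger gene Slc8a1 was the 1 beyond 4-fold, at 303 and 65.3 CPM. The bicarbonate transporter genes Slc4a4 and Slc4a10 stood at 435 and 604 CPM and at 222 and 119.6 CPM, and the chloride importer gene Slc12a2 at 127 and 156 CPM. In this list 16 of 20 detected genes lay within 2-fold, while Slc26a2, Slc12a3 and Slc4a2 lay beyond 4-fold.

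Among nutrient carriers, Slc2a13, a proton and inositol carrier gene, stood at 965 and 789 CPM and the neuronal glucose transporter gene Slc2a3 at 133 and 163 CPM. Slc38a2, an amino acid carrier gene, stood at 253 and 437 CPM, Slc3a2 at 96.0 and 86.2 CPM, Slc7a14 at 83.1 and 92.8 CPM and Slc7a8 at 75.2 and 87.9 CPM. Slc3a1 stood at 814 and 939 CPM. It overlaps Prepl over 1789 bases in RefSeq's annotation, and Prepl itself stood at 174 and 201 CPM, so reads of the 2 genes may not be separable. The lactate carrier gene Slc16a7 stood at 7.53 and 95.3 CPM and the sugar carrier gene Slc45a1 at 109 and 6.63 CPM, in opposite directions.

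Metal ion transporters were detected in 28 of 30 cases, with 13 within 2-fold. The zinc carrier genes Slc39a10, Slc30a9 and Slc39a9 stood at 321 and 222 CPM, at 209 and 261 CPM and at 107 and 109.8 CPM. Slc30a1, the zinc exporter gene of the plasma membrane, stood at 44.1 and 2.12 CPM and Slc39a14 at 10.3 and 69.4 CPM. Mitochondrial carriers were detected in 35 of 36 cases. The ADP/ATP carrier genes Slc25a5 and Slc25a4 stood at 246 and 284 CPM and at 84.7 and 302 CPM, and the pyrimidine carrier gene Slc25a33 at 176 and 172 CPM. Slc25a25, Slc25a37 and Slc25a10 were higher in replicate 2 and Slc25a24 in replicate 1, and Ucp2 had 139 and 0 counts.

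In the list of organic ion and other carriers, 13 of 47 detected genes lay beyond 4-fold. Slc22a23 and Slc22a17 stood at 326 and 470.0 CPM and at 318 and 247 CPM, and the choline carrier gene Slc44a1 at 143 and 115 CPM. Slc13a5, a citrate carrier gene, had 0 and 341 counts and Slc44a3 388 and 2. ABC transporters had 28 of 30 named genes detected. The cholesterol exporter gene Abcg1 stood at 94.5 and 320.0 CPM, the peroxisomal genes Abcd2 and Abcd3 at 105 and 177 CPM and at 91.6 and 96.2 CPM, and Abcb1a, which overlaps Rundc3b, at 49.4 and 127 CPM. Abcc10, Abcc12 and Abcf3 were 29.4-fold, 22.5-fold and 17.2-fold apart.

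Transcription factors of the striatal lineage were detected in 43 of 46 named cases. Foxp1, a forkhead factor of spiny neurons, stood at 1970 and 1820 CPM, and Foxp2 at 722 and 619.5 CPM. Meis2, a homeobox factor, stood at 1411 and 1176 CPM. Bcl11b, which spiny neurons need to mature, stood at 502 and 421 CPM. These 4 lay at most 1.20-fold apart. The retinoic acid receptor gene Rarb stood at 305 and 762 CPM, and Pbx3, a partner of MEIS proteins, at 332 and 561 CPM. Nfib and Nfix, of the nuclear factor I family, stood at 297 and 32.1 CPM and at 9.64 and 0.619 CPM. Dlx1, Sox11 and Tshz2 had 384, 135 and 114 counts in replicate 1 and 4, 2 and 3 in replicate 2. In this list 21 of 43 lay within 2-fold and 11 beyond 4-fold.

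Nuclear receptors had a median of 74.8 CPM over 25 detected genes, with 17 within 2-fold. Thrb, a thyroid hormone receptor gene, stood at 284 and 407 CPM, Nr4a3 at 278 and 259 CPM, the glucocorticoid receptor gene Nr3c1, which has 2 identifiers under 1 symbol, at 164 and 117 CPM for the larger of them, and the clock factor gene Nr1d2 at 95.6 and 180.2 CPM. The oestrogen receptor gene Esr1 stood at 7.87 and 1.24 CPM and Rara at 6.43 and 0.708 CPM. Hnf4a had 751 and 0 counts.

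In the list of immediate early, CREB family and related factors, matched by name, 50 of 52 genes were detected. Egr1, an immediate early gene, stood at 369 and 425 CPM, Npas2 at 415 and 560.3 CPM, Mef2c at 449 and 357 CPM and Mef2a at 376 and 270.1 CPM. Elk1, which ERK kinases phosphorylate, stood at 448 and 149 CPM. Klf11, Klf15 and Crebzf lay beyond 4-fold, and Creb3l2 and Elk4 had 733 and 399 counts in replicate 1 against 5 and 1. Among forkhead, SOX and homeobox factors, Foxo1 stood at 213 and 277 CPM. Sox5 stood at 22.6 and 301 CPM, Cux2 at 1.87 and 27.5 CPM and Adnp2 at 1.63 and 25.2 CPM. Foxs1 had 0 and 1302 counts and Sox13 7 and 176, so all 5 of these were high in replicate 2.

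Of basic helix-loop-helix factors, 34 of 37 were detected and 23 lay within 2-fold. Mxi1, which competes with MYC for MAX, stood at 689.7 and 485 CPM and Tcf4, an E protein, at 506 and 349 CPM. Hif1a stood at 174 and 231 CPM and the sterol regulator gene Srebf2 at 128 and 244 CPM. Mitf stood at 617 and 47.7 CPM, Myc at 37.2 and 4.78 CPM and Heyl at 17.5 and 1.46 CPM, all higher in replicate 1. In the last list, 82 of 87 factors were detected, 40 within 2-fold and 21 beyond 4-fold. Myt1l, which maintains neuronal identity, stood at 718 and 977 CPM, Tef at 332 and 383 CPM, Smad3 at 273 and 502 CPM, Nfyc at 229 and 399.9 CPM and Nfat5 at 399.8 and 167 CPM. Tbx19 was 46.4-fold apart, at 24.6 and 0.531 CPM, and Irf4 and Stat2 stood at 37.9 and 2.43 CPM and at 17.4 and 1.11 CPM. E2f2 and Rfx8 had 319 and 150 counts in replicate 1 and 2 and 0 in replicate 2, and Fli1 had 8 and 288.

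Genes with many counts in 1 library and few or none in the other were spread over the classes. Of named genes with 100 or more counts in either library, 406 of 10732, or 3.78%, had under 10 counts in the other. The share was 5.19% of 77 for peptides, 5.45% of 202 for receptors, 4.55% of 154 for channels, 5.11% of 235 for transporters and 4.98% of 261 for transcription factors. Of the 406, 204 had their 100 or more counts in replicate 1 and 202 in replicate 2, so the 2 libraries were nearly even in this respect. The cause of these gaps was not tested, and a gene with no or few counts in 1 of the 2 libraries cannot be taken as absent from the neurons.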

How the data were processed

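Counts of 5 libraries were read as the authors deposited them, 1 table per library, with a read count for each of 32285 Ensembl genes. RNA from the lysed cells was selected for poly(A) tails and amplified by a kit meant for single cells, per the labels' protocols. Build Rnor_6.0 and the tools TopHat2, HTSeq, edgeR and limma, with neither versions nor roles, are named in the submitters' processing notes. Whole-transcript amplification without molecular identifiers can copy some transcripts unevenly, and counting intervals do not cover this.

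Plain CPM was computed from library totals. Gene symbols came from the authors' deposited comparison, whose statistics were not used. The normalization factors in the labels equal the TMM factors computed here with edgeR 4.0.16 in R 4.3.3. Detection required 10 counts in both striatomesencephalic libraries. Named genes are the top 20 by mean CPM, and in each list the 5 highest, up to 3 beyond 4-fold and up to 3 with 100 or more counts in 1 library and under 10 in the other, all members of the direct, indirect and interneuron lists, with not every gene so taken printed, and some items not reported here. The 52 lists were chosen with earlier results of these data known. No 2-group test was made. The ratio and its Clopper-Pearson interval were tested on simulated data with counting error only. This checks the computation and says nothing of variation between libraries or of amplification. Alternatives were count minimums of 1, 20 and 50, both scalings and each library alone. Promoter windows were matched by symbol for 8015 of 11118 detected symbols.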

Additional observations from a re-analysis of the deposited data

How the results depend on the processing

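The number of detected genes was 14618 with a minimum of 1 count in both libraries, 11058 with 20 and 9808 with 50, each within 1.5 times the 11823 reported, and it was 12844 to 12886 with 1 library left out. The counts of detected peptide, receptor, channel, transporter and transcription factor genes stayed within 1.5 times the reported ones under each of these settings. The share of genes within 2-fold was 54.5% with a minimum of 1 count, 62.1% with 20 and 65.2% with 50, and the Spearman correlation was 0.868, 0.811 and 0.789, so a higher minimum raised the share and lowered the correlation. TMM scaling and the normalization factors in the labels, which are the same factors, gave 60.3%. Scaling a whole library cannot change its ranks, so the Spearman correlation stayed at 0.823 by construction. Either scaling lowered the CPM of the 329 detected named genes by at most 4.55%, and for 18 of them this exceeded the SD of the 2 libraries. A rank per transcript length was not run, since no transcript lengths of the files' build were used here. No paired analysis was possible because no result comes from a test between groups. Depth limits what can be said of genes near 10 counts, and 2 libraries cannot tell a rare transcript from a lost one.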
